A study of Homo sapiens with 8 samples.

Results

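The endothelin system was followed here through 6 genes: the ligand genes EDN1, EDN2 and EDN3, the receptor genes EDNRA and EDNRB, and ECE1, which encodes an endothelin converting enzyme. The genes were chosen by their place in this family after an earlier result of these same arrays, in which EDN3 was lower in AC133 high Caco2 cells, and every probe carrying one of their names was then taken. This gave 7 of the 22184 probes on the array, and 5 of the 6 genes, out of 16578 genes with a probe. EDNRB had 3 probes, EDN1, EDN2, EDN3 and ECE1 had 1 each, and no probe is named EDNRA here, so that receptor was not analysed here. Because the choice used these arrays, differences of the members between groups are given as descriptions with no test.

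Endothelins are short vasoactive peptides cut from large precursors. Furin-type proteases release an inactive intermediate, and converting enzymes such as the ECE1 product cleave it to the mature peptide. The mature peptides act through G protein-coupled receptors. The receptor encoded by EDNRA prefers endothelin-1 and endothelin-2, while the EDNRB receptor binds all endothelins about equally. Endothelin-3 acting on EDNRB is known for its part in the development of neural crest derivatives, the melanocytes of the skin and the neurons of the gut.

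The study asked how cells that carry much or none of the AC133 epitope differ, an epitope of CD133, the membrane protein encoded by PROM1. The 4 groups were AC133 high and AC133 negative Caco2 cells, and AC133 high and AC133 negative WM115 cells, with 2 separately sorted samples in each, which the labels call biological duplicates. Caco2 is an epithelial line from a colorectal adenocarcinoma, and all its cells here carried a lentiviral reporter, green fluorescent protein driven from the mouse Melk promoter. They came from 2 clones isolated from a culture infected at passage 10. The clone used for each sort is not given in the labels. WM115 is a melanoma line, grown in another medium and without mention of the reporter. In both lines the high fraction was the 10% of cells with the brightest staining, and doublets and dead cells were gated out. The labels name no drug treatment in any group.

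The members' positions on the GRCh38.p14 assembly, from the RefSeq gene table, are chromosome 6, bases 12230516 to 12297194, for EDN1, chromosome 1, bases 41478775 to 41484683, for EDN2, and chromosome 20, bases 59300611 to 59325992, for EDN3. EDNRB lies on chromosome 13, bases 77895487 to 77975527, and ECE1 on chromosome 1, bases 21217250 to 21345504. The exon or untranslated region that a probe matches is not given in the sources used here. RefSeq held 11 promoter windows for 5 of the 6 genes, each running 250 bases before to 50 bases after a start site. They were searched on both strands for CATGTG, an E-box form bound by the melanocyte factor MITF, AGATAA, bound by GATA factors, TGANTCA, bound by AP-1, and TATAAA, the TATA box. Of the 35116 windows in that table, 11.1% hold CATGTG, 10.3% AGATAA, 7.71% TGANTCA and 11.5% TATAAA. Of the members' 11 windows, 1 of EDN1 and 1 of EDNRB held a match, and these are shown because EDN1 and EDNRB are the members with a level difference between the lines in both sort fractions and a match in a window. Capitals mark the matches, and each sequence runs 5′ to 3′ on the gene's strand.
EDN1: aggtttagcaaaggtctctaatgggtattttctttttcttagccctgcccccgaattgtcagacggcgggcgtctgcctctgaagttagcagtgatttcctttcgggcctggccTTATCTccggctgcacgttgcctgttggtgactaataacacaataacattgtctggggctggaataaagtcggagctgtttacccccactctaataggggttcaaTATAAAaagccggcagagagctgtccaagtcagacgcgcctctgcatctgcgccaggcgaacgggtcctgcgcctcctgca
EDNRB: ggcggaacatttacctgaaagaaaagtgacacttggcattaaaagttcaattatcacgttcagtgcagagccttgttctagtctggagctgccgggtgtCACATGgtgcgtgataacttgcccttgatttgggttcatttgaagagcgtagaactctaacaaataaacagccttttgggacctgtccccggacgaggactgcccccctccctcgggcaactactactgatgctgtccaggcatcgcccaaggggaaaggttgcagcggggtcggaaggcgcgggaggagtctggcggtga
The EDN1 window is chr6:12290111-12290410 on the plus strand, with AGATAA read on the opposite strand 136 bases before the start and TATAAA 31 bases before it. The EDNRB window is chr13:77919633-77919932 on the minus strand, with CATGTG read on the opposite strand 151 bases before the start. The matches are descriptions of letters in these windows.

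The deposited value of a probe is the mean signal of its beads, and its detection p-value ranks it against the negative control probes of the same array. A probe is called detected on an array where that p is under 0.05. Per array, 53.7% to 59.2% of the probes were detected, the median signal was 49.5 to 58.8, and the median number of beads per probe was 41 to 42. Probes near the middle of the detection scale had a signal of 36.3 to 38.5, which is the level of a probe with no detected transcript. PROM1 was 18.1-fold higher in AC133 high than in AC133 negative Caco2 cells (limma, adjusted p = 4.10e-04) and 12.1-fold higher in AC133 high than in AC133 negative WM115 cells (limma, adjusted p = 6.91e-04). Of 10 colon epithelium markers, 8 were detected on both arrays in each Caco2 group, with CDX1 and LGALS4 the exceptions, and 1, KRT18, in each WM115 group. Of 7 melanocyte markers with a probe, 6 were detected on both arrays in AC133 high and 7 in AC133 negative WM115 cells, against 2 in AC133 high and 1 in AC133 negative Caco2 cells. Of 9 endothelial markers, each group had 1 detected on both arrays, but not the same one. It was PECAM1 in AC133 high Caco2 cells, KDR in AC133 negative Caco2 cells and VWF in each WM115 group. The WM115 negative array of sort 2 stood apart from the other 3 arrays of its line, where 175 probes exceeded all of them by over 2-fold and 37 were under all of them by over 2-fold. Differences of EDN1, EDNRB and ECE1 in WM115 are therefore also given without it. Among the Caco2 arrays, the negative array of sort 1 differed most from the other 3 of its line. On it, 18 probes exceeded all of them by over 2-fold and 49 were under all of them by over 2-fold. The EDN3 and EDN1 differences in Caco2 are also given without this Caco2 array.

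EDN3 was the member that differed most between the sort fractions of Caco2. It fell just short of detection in AC133 high Caco2 cells and was clearly detected in AC133 negative Caco2 cells, in both sorts. In WM115 it was not detected. The EDN3 probe gave signals of 50.5 and 43.7 on the AC133 high Caco2 arrays of sorts 1 and 2, against 279.8 and 136 on the AC133 negative Caco2 arrays. The standard errors over beads of these signals were 2.28 and 2.24 for the high arrays and 11.3 and 4.63 for the negative arrays. The 2 fractions did not overlap, though how many of all probes did the same was not counted. Both negative arrays passed detection, while the high arrays, with detection p-values of 0.0551 and 0.0706 on the array scale, did not. After normalization EDN3 averaged 4.72 ± 0.04 in AC133 high and 7.47 ± 0.53 in AC133 negative Caco2 cells on the log2 scale (SD, n = 2 each). The difference was -2.75, made of -3.10 in sort 1 and -2.40 in sort 2. Since the high group was not above background, the fold is a bound. With this background correction and all arrays, EDN3 was at least 6.62-fold lower in AC133 high than in AC133 negative Caco2 cells. Other background handling gave smaller differences, as stated below. Over all genes, 0.624% were called higher and 0.223% lower in AC133 high Caco2 cells, and nothing is read from EDN3 against these shares, because that contrast chose it. In WM115 the EDN3 signals were 37.2 and 44.4 in AC133 high cells, against 38.5 and 38.0 in AC133 negative cells, and none of the 4 arrays passed detection. The EDN3 difference in WM115 was 0.06, and 0.05 without the negative array of sort 2. In these sorted bulk samples, fewer cells that express a gene and less RNA per cell cannot be told apart.

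The size of the EDN3 difference in Caco2 depended on how background was handled. Without background correction it was -1.77, with the authors' normalized values -1.81, and with a normexp offset of 50 it was -1.82. It stayed negative in all 13 alternatives, but the replicate block and leaving out a WM115 array cannot change this difference. Of the 7 blood markers, only CD14 and LYZ were detected on both arrays of each Caco2 group, so the list as a whole was not detected. The summed signal of all 7 was 3132 to 3317 on AC133 high arrays, against 4787 to 5342 on AC133 negative arrays. Any link of CD14 and LYZ to the EDN3 difference was not tested.

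**Figure D1:**
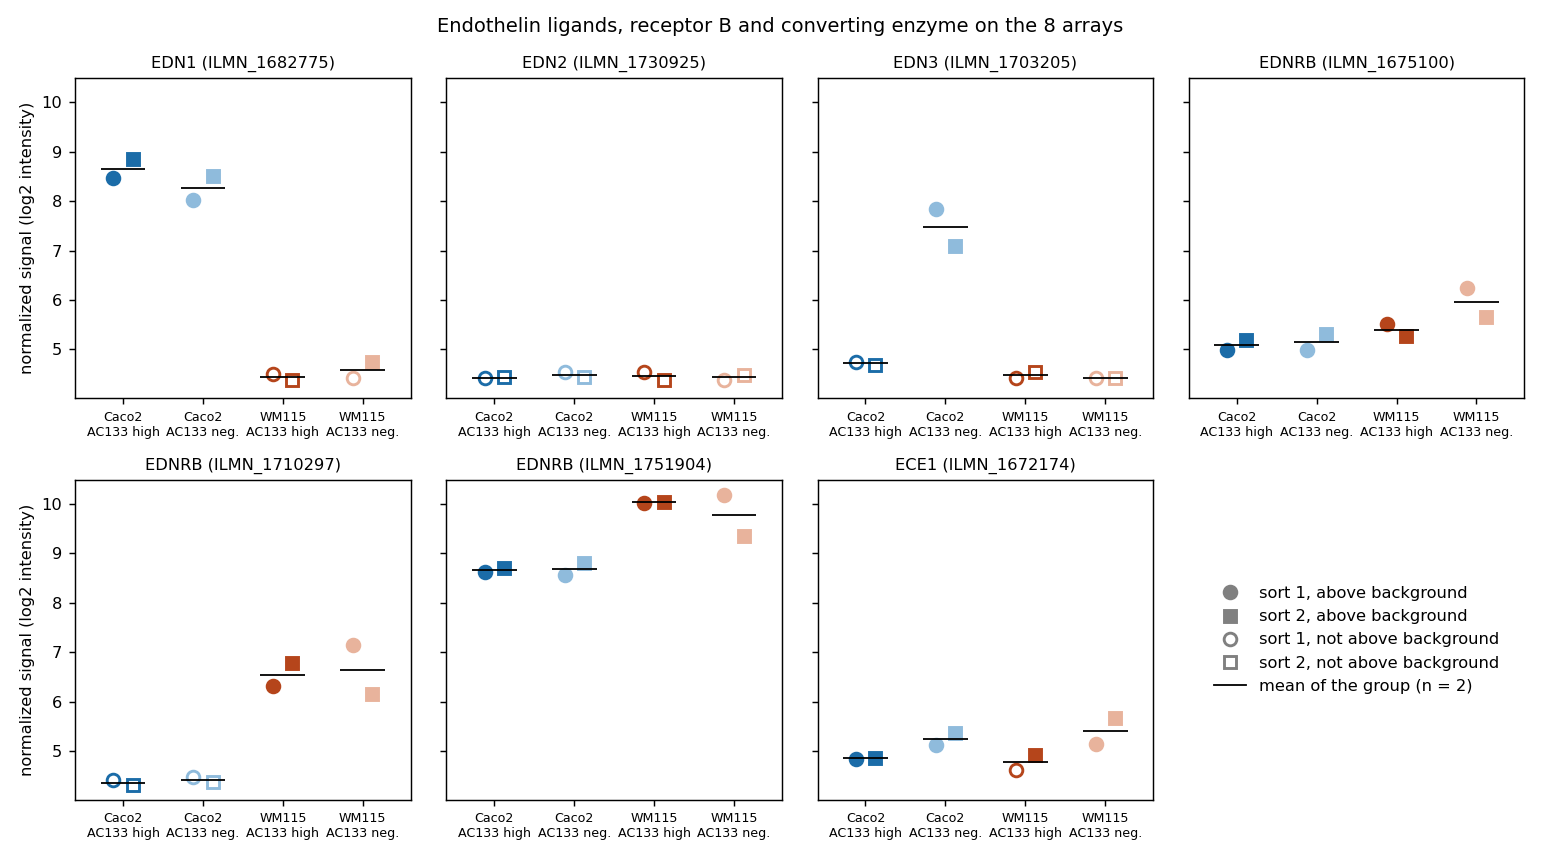
Normalized log2 intensity of each member probe on every array (vertical axis), with 1 panel per probe and the groups in the order AC133 high and negative Caco2, then AC133 high and negative WM115. Circles are sort 1, squares sort 2, open symbols are arrays where the probe was not above background, and lines are group means of 2 arrays; EDN3 stands above background in AC133 negative Caco2 cells, EDN1 in both Caco2 groups, and EDN2 in no group.

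EDN1, the ligand best known from blood vessel endothelium, was expressed in Caco2 and near background in WM115. The EDN1 signals were 437 and 366 on the AC133 high Caco2 arrays, against 311 and 316 on the AC133 negative Caco2 arrays, all detected. In WM115 they were 40.2 and 36.3 in AC133 high cells, against 38.4 and 47.7 in AC133 negative cells, where the negative array of sort 2 alone passed detection. The 4 Caco2 arrays lay far above the 4 WM115 arrays, though how many of all probes did the same was not counted. Between the lines, 30.4% of all genes were called higher and 29.9% lower in Caco2. Over both fractions, 177 tested probes were higher in Caco2 by more than EDN1. On the log2 scale EDN1 averaged 8.66 ± 0.28 in AC133 high and 8.27 ± 0.34 in AC133 negative Caco2 cells, and 4.44 ± 0.09 in AC133 high and 4.59 ± 0.23 in AC133 negative WM115 cells (SD, n = 2 each). EDN1 was at least 15.2-fold higher in AC133 high Caco2 cells than in AC133 high WM115 cells with this background correction. In the AC133 negative cells the difference, Caco2 minus WM115, was 3.68, with WM115 detected on 1 of 2 arrays, the one that stood apart. Over both fractions the EDN1 line difference was 3.95, and 4.03 without that array. It was 2.79 without background correction, 2.81 with the authors' normalized values and 2.77 with a normexp offset of 50. Between the sort fractions of Caco2 the EDN1 difference was 0.39, with 0.44 in sort 1 and 0.35 in sort 2. With 1 array left out it was 0.59 (high, sort 1), 0.19 (high, sort 2), 0.15 (negative, sort 1) or 0.64 (negative, sort 2). The normalized values of the 2 fractions overlapped across sorts, and 847 probes rose by more. In WM115 the difference was -0.15, with 0.07 in sort 1 and -0.38 in sort 2, so the sorts went opposite ways, and without the negative array of sort 2 it was 0.01.

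EDN2, the ligand closest to EDN1 in sequence, was detected on none of the 8 arrays. Its signals were 38.5 and 37.2 in AC133 high Caco2 cells, against 42.9 and 39.6 in AC133 negative Caco2 cells. In WM115 they were 41.2 and 36.9 in AC133 high cells, against 36.0 and 40.0 in AC133 negative cells. These signals lie around the array background, so no fold is given, and EDN2 was the 1 member probe that did not enter the fit. The other 6 passed the filter on low values.

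**Figure D2:**
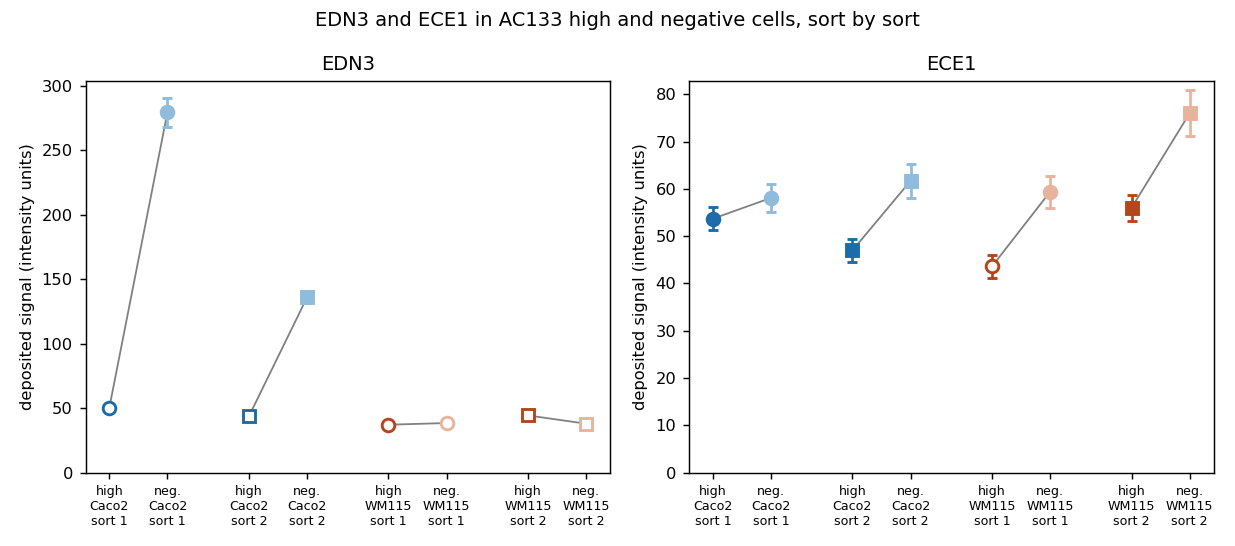
Deposited signal of the EDN3 and ECE1 probes on each array by sort, AC133 high left of AC133 negative, with bars giving the standard error over beads. In Caco2 the EDN3 signals are 50.5 and 43.7 in high cells and 279.8 and 136 in negative cells, and ECE1 is lower in the high fraction in each of the 4 sorts.

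The receptor gene EDNRB was detected in both lines, and its probes were higher in WM115 than in Caco2 by unequal amounts. The probe with the brightest EDNRB signal (ILMN_1751904) gave 486 and 332 in AC133 high and 448 and 385 in AC133 negative Caco2 cells. The same probe gave 1059.6 and 1163 in AC133 high and 1091 and 706 in AC133 negative WM115 cells. All 4 WM115 arrays were above all 4 Caco2 arrays, though how many of all probes did the same was not counted. The line difference, Caco2 minus WM115, was -1.23, or 2.34-fold higher in WM115, and 1395 tested probes were lower in Caco2 by more. Over all genes, 30.4% were called higher and 29.9% lower in Caco2. A second EDNRB probe (ILMN_1710297) gave 38.2 and 31.4 in AC133 high and 40.6 and 36.1 in AC133 negative Caco2 cells, none detected. It gave 103 and 148 in AC133 high and 167 and 99.7 in AC133 negative WM115 cells, all detected. For this probe the line difference was -2.21, at least 3.57-fold higher in WM115 with this background correction, and 587 tested probes were lower in Caco2 by more. The line difference of ILMN_1710297 was -1.39 without background correction, -1.49 with the authors' normalized values and -1.26 with a normexp offset of 50. The third EDNRB probe (ILMN_1675100) gave 57.6 and 52.3 in AC133 high and 54.5 and 60.9 in AC133 negative Caco2 cells, against 67.7 and 66.3 in AC133 high and 102 and 75.5 in AC133 negative WM115 cells. It was detected on all 8 arrays, and its normalized line difference of -0.55 went with overlapping lines. Without the WM115 negative array of sort 2, the line differences were -1.44, -2.46 and -0.69 in the order the probes are given, and without that of sort 1 they were -1.02, -1.96 and -0.40. Line, culture medium and reporter cannot be told apart in any comparison of Caco2 with WM115.

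Between the sort fractions, EDNRB differed by less than 0.1 in Caco2, and in WM115 its probes did not share a direction over all arrays. In Caco2 the differences, AC133 high minus negative, were -0.02, -0.06 and -0.07 for ILMN_1751904, ILMN_1710297 and ILMN_1675100. In WM115 they were 0.28, -0.09 and -0.56. Of these, only ILMN_1675100 had groups that did not overlap, with -0.73 in sort 1 and -0.38 in sort 2, and 337 probes fell by more. How many of all probes had WM115 fractions that did not overlap was not counted. Over all genes 0.00892% were called higher and 0.00892% lower in AC133 high WM115 cells. The other 2 probes went opposite ways in the sorts, with -0.15 and 0.70 for ILMN_1751904 and -0.82 and 0.63 for ILMN_1710297. Without the WM115 negative array of sort 2, the 3 differences were all negative, at -0.14, -0.59 and -0.85, and without that of sort 1 they became 0.70, 0.40 and -0.26.

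ECE1, the converting enzyme that cuts the endothelin intermediates, was close to background and lower in the AC133 high fraction in both lines. The ECE1 signals were 53.7 and 47.0 in AC133 high Caco2 cells, against 58.1 and 61.7 in AC133 negative Caco2 cells. In WM115 they were 43.6 and 56.0 in AC133 high cells, against 59.4 and 76.0 in AC133 negative cells. The high fraction was below the negative fraction in all 4 sorts, and ECE1 was detected on 7 of 8 arrays, the exception being the high WM115 array of sort 1. On the log2 scale the difference was -0.39 in Caco2, with -0.28 in sort 1 and -0.50 in sort 2, which is 1.31-fold lower in AC133 high cells. In WM115 it was -0.63, with -0.52 in sort 1 and -0.75 in sort 2, which is 1.55-fold lower in AC133 high cells. Neither line's fractions overlapped, but with 2 arrays per fraction EDN2, not detected on any array, did not overlap in Caco2 either. How many of all probes did so, or were lower in all 4 sorts, was not counted. Both ECE1 differences were smaller without background correction, at -0.20 in Caco2 and -0.33 in WM115. With a normexp offset of 50 they were -0.19 in Caco2 and -0.32 in WM115. With the authors' normalized values the WM115 difference was -0.40. On these arrays 782 probes fell by more in Caco2 and 253 in WM115. Without the WM115 negative array of sort 2 the WM115 difference was -0.37, and without that of sort 1 it was -0.90. Between the lines ECE1 differed by -0.03, less than the spread between sorts, and the sign changed in 3 of 13 alternatives.

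**Figure D3:**
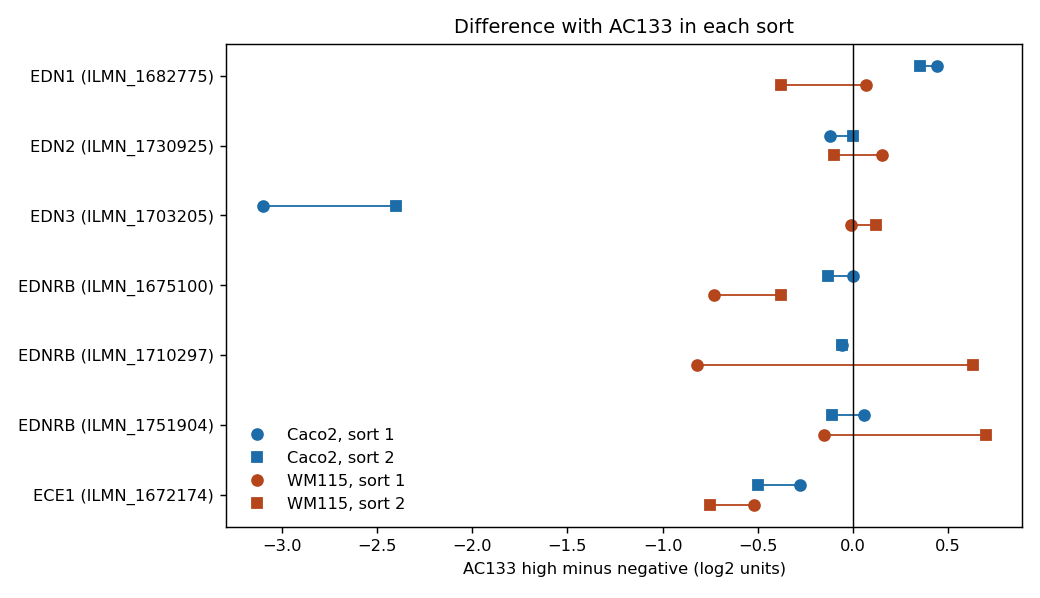
Difference in normalized log2 intensity, AC133 high minus AC133 negative, for each member probe in each sort of Caco2 and WM115. Circles are sort 1 and squares sort 2; EDN3 in Caco2 lies at -3.10 and -2.40, ECE1 lies below 0 in all 4 sorts, and 2 EDNRB probes lie on both sides of 0 in WM115.

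The probes of other genes whose pattern over the 8 arrays was most like that of a member were found by the root-mean-square distance between log2 values centred on each probe's mean. For EDN3, whose values had an SD of 1.37 over the arrays, they were ZAP70 at 0.11, SMOC2 at 0.22 and EGFLAM at 0.27. ZAP70 encodes a tyrosine kinase known from T cells, and its probe differed by -2.68 between the Caco2 fractions, SMOC2 by -3.06 and EGFLAM by -3.07. For EDN1, with an SD of 2.13, they were MECOM at 0.16, MPZL2 at 0.16 and MYADM at 0.17. For ECE1, with an SD of 0.33, they were another ZAP70 probe at 0.11, EFNB1 at 0.12 and DRAP1 at 0.13. That other ZAP70 probe differed by only -0.26 between the Caco2 fractions, so the ZAP70 probes were unlike. For EDNRB probe ILMN_1751904, with an SD of 0.70, they were FAM210A at 0.08, CEP350 at 0.09 and TAFA5 at 0.09. For ILMN_1710297, with an SD of 1.22, they were PTPDC1 at 0.17, ECM1 at 0.17 and ZMAT3 at 0.18. For ILMN_1675100, with an SD of 0.41, they were STON1 at 0.11, ICAM5 at 0.14 and ART3 at 0.14, so the EDNRB probes shared no neighbour. These distances describe 8 arrays of 4 groups and carry no test.

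The wider pathway was followed through 9 lists with 150 genes, of which 139 had a probe and 100 were tested. In the Caco2 sort 0 of the 100 were called higher and 1 lower in AC133 high cells, and 10 had an unadjusted p under 0.05 (limma). The called gene was NPPB, which encodes the natriuretic peptide BNP. NPPB averaged 9.44 in AC133 high and 10.49 in AC133 negative Caco2 cells on the log2 scale, a difference of -1.05 (SE 0.17, limma adjusted p = 0.042). With the sort number as a block the adjusted p was 0.089, and over 15 alternatives it was 0.029 to 0.3, with the call lost in 12 of them. In the WM115 sort 0 were called higher and 0 lower (limma), and 13 had an unadjusted p under 0.05. The test of the difference between the lines' sort effects called 0 of the 100 (limma), with 10 at an unadjusted p under 0.05. Median differences of the lists ran from -0.22 for processing and clearance to 0.18 for early response genes in Caco2. In WM115 they ran from -0.28 for desensitisation to 0.26 for the melanocyte list. In Caco2 the genes with the smallest p of their list but no call were MME, an endothelin-degrading peptidase, at -0.64, PRKCA at -0.51, RGS2 at 0.83, EGFR at 0.41, CCN2 at 0.68, ETS1 at -0.62, L1CAM at -1.03 and MC1R at -0.33, with limma adjusted p of 0.18 to 0.8. The other EGFR probes gave 0.29 and -0.08. In WM115 they were FURIN, a precursor-cutting protease, at -0.48, PRKCZ at 0.39, RGS16 at -1.05, SHC1 at -0.63, CCN2 at -1.16, ZEB2 at -0.50, SEMA3C at -0.69, MLANA at 0.79 and NPR1 at 0.31, with limma adjusted p of 0.84 to 1. The other SHC1 probes gave -0.39 and 0.29. When the array that stood apart was left out, 0 pathway genes were called in WM115 (limma), against 4 of all probes tested. Leaving out the negative array of sort 1 instead, which keeps it as the lone negative and assumes that it varies like the other groups, 8 were called (limma), against 249 of all probes tested, 63 higher and 186 lower.

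Between the lines, 36 of the 100 pathway genes were higher and 38 lower in Caco2, with limma adjusted p of at most 0.037 for the genes named here, where 30.4% of all genes were called higher and 29.9% lower. Both shares were somewhat above those over all genes, and the excess was not tested. All values that follow are log2 differences, Caco2 minus WM115. Of 4 tested genes for processing and clearance 2 were higher, CTSA at 0.74 and ECE2 at 0.52, and 1 lower, MME at -3.37. Of 20 genes of G protein signalling 5 were higher and 12 lower, the median being -0.64 against 0.02 over all genes. The higher ones included PRKCA at 2.80, PLCB1 at 2.67 (0.23 by another probe), PLCB3 at 1.10 and PRKCZ at 0.64. The lower ones included PRKCB at -4.49, PRKCE at -2.26, GNAI1 at -2.12 and GNAQ, which encodes the alpha subunit that couples endothelin receptors to phospholipase C, at -1.83. Of 7 desensitisation genes 3 were higher, GRK6 at 0.92, RGS2 at 0.87 and ARRB1 at 0.56, and 1 lower, RGS3 at -0.33. Of 17 kinase effectors 7 were higher, among them EGFR at 2.87, SRC at 1.16, RHOA at 0.70 and ROCK2 at 0.67, and 2 lower, SHC1 at -1.30 and PTK2 at -0.80. Of 12 early response genes 6 were higher, among them PTGS2, which encodes a prostaglandin synthase, at 3.22, CCN1 at 2.81, FOS at 1.63 and DUSP1 at 1.34, and 2 lower, FOSL1 at -1.06 and FOSB at -0.57. Of 14 regulators 4 were higher, TCF7L2 at 1.38, FOXO1 at 1.31, YAP1 at 0.49 and GATA2 at 0.39. The 8 lower regulators included SOX10 at -5.87, MITF at -5.57, ZEB2 at -4.56 and ETS1 at -4.20, and SOX10 and MITF encode transcription factors of the melanocyte lineage. Of 9 melanocyte genes 1 was higher, KITLG at 3.75, and 7 lower, among them PMEL at -7.32, TYR at -6.69, MLANA at -6.65 and MC1R at -5.24. Of 7 enteric neural crest genes 2 were higher, KIFBP at 0.72 and ERBB2 at 0.39, and 4 lower, NRTN at -2.24, L1CAM at -2.0, ERBB3 at -1.74 and SEMA3C at -1.52. Of 10 vasoactive peptide and receptor genes 6 were higher, among them NPPB at 5.56, AGT at 3.11, ADM at 2.38 and KNG1 at 0.76, and 1 lower, NPPC at -0.65. Other probes of EGFR gave 0.55 and 0.04, of SHC1 -0.66 and -0.33, of SRC 0.56 and of PTK2 -0.18. Those of PRKCB gave -1.41 and -2.06, of MITF -1.54, of KITLG 1.39, of ERBB2 0.09 and of ERBB3 -0.88 and -1.13. Where 1 line was not above background for the probe given first, the fold is a bound for that probe with normexp offset 16. Such genes were at least 5.46-fold (PRKCA), 5.86-fold (EGFR), 7.71-fold (PTGS2) and 37.8-fold (NPPB) higher in Caco2. Others were at least 3.61-fold (GNAI1), 17.5-fold (PRKCB), 19.1-fold (ZEB2), 49.5-fold (SOX10), 80.7-fold (MLANA), 80.5-fold (TYR) and 1.21-fold (NPPC) higher in WM115.

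**Figure D4:**
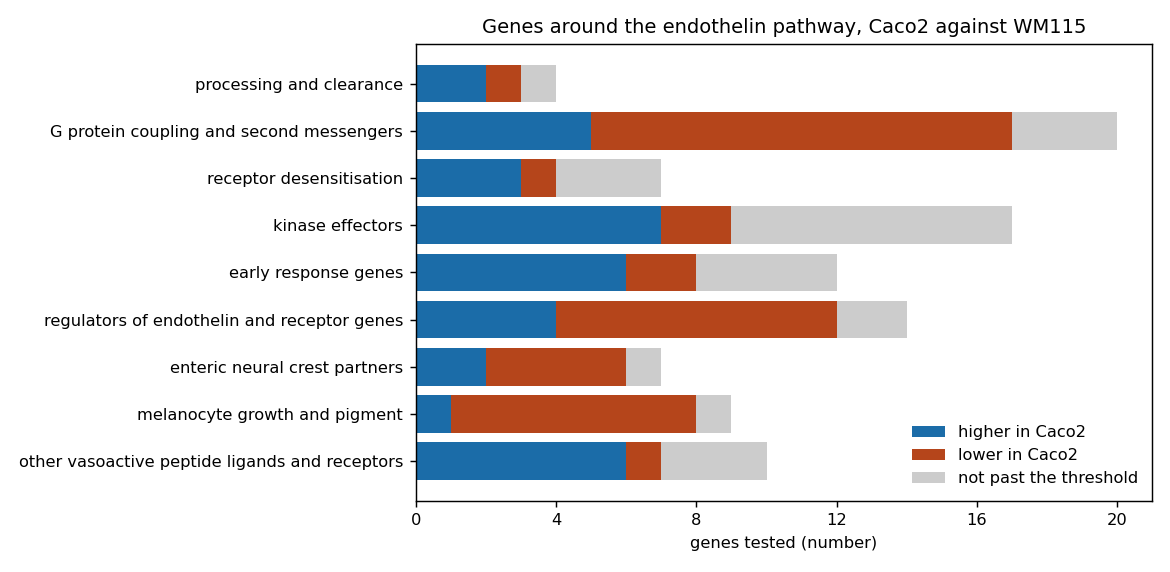
Number of tested genes in each pathway list that were called higher in Caco2, lower in Caco2 or not past the threshold, Caco2 against WM115. Of the 100 genes 36 were called higher and 38 lower in Caco2. Of the 9 melanocyte genes 1 was higher and 7 lower.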

How the data were processed

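RNA from sorted Caco2 and WM115 cells was amplified from 500 ng, and 750 ng of labelled product was hybridised for 18 h at 58 °C, per the labels. All 8 arrays lie on 1 slide. The deposited intensity of each probe is the authors' mean bead signal from BeadStudio 3, per the design text, with no normalization between arrays. The deposited files also give a detection p-value, the count of beads per probe and a standard error over beads, per the file headers. The authors also deposited a quantile-normalized intensity table, used as an alternative. The genome build of the probes is not given in the sources used here.

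Signals were background-corrected with normexp (limma 3.58.1 in R 4.3.3, offset 16), quantile normalized and log2 transformed. Tests were limited to the 13844 probes, for 11214 genes, with detection p under 0.05 on each array of 1 or more groups. A limma model with 4 group means was fitted to all 8 arrays, with two-sided p-values adjusted by Benjamini-Hochberg over all probes and a threshold of 0.05, and the method was tested on simulated data. P-values set a difference against the spread between sorts, pooled over the 4 groups of both lines and moderated over all probes tested. The residual degrees of freedom were 4 and the prior ones 4.35, so a p-value for Caco2 also rests on WM115 arrays and on other probes. Of the probes, 19715 had a gene symbol and 2469 none. For 19695 the symbol was taken from the RefSeq gene table through the gene ID, whether or not it changed.

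Members and lists were chosen with earlier results of these data known. Named pathway genes were up to 4 per list and direction with the smallest p past the threshold, or the 1 with the smallest p where none passed. The 3 nearest probes were taken for likeness. Sort numbers, which the labels share between fractions, paired the samples for the differences given sort by sort. The limma model did not use this pairing, except in the replicate block alternative. Deviations from group means of samples sharing a sort number correlated at 0.28 in Caco2 and 0.18 in WM115.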

Additional observations from a re-analysis of the deposited data

How the results depend on the processing

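The EDN3 difference in Caco2, -2.75, became -1.77 without background correction, -1.81 with the authors' normalized values and -1.82 with a normexp offset of 50, and -3.13 to -2.37 with 1 array left out. The count of pathway genes called in the Caco2 sort, 1, became 0 under median scaling, the replicate block, no filter, detection on all arrays, Caco2 alone and the methods' t-test after adjustment, and it was 7 with that t-test unadjusted. With 1 array left out it was 0 to 0. EDN1, ECE1 and EDNRB differences that moved with background handling stand beside their values. In the WM115 sort the count of 0 became 5 with the methods' t-test unadjusted, and 0 to 8 with 1 array left out. The 8 arose without the WM115 negative array of sort 1, which leaves the array that stood apart as the lone negative; without that of sort 2 it was 0. In the line comparison the count of 74 became 44 with probes detected on all arrays, 66 to 74 with 1 array left out and 65 with the replicate block. Over all probes tested, 107 were called in Caco2, against 8 to 80 with 1 array left out and 56 with the block. In WM115 it was 3, against 3 to 249 and 4. The Caco2 count of 107 over all probes also became 41 under median scaling, 1 with Caco2 alone and 1 with probes detected on all arrays. It was 0 with the methods' t-test after adjustment and 979 with that t-test unadjusted. Without background correction it was 75, with no filter 75, with a normexp offset of 50 it was 82, and with the authors' normalized values 83. Causes of these changes were not tested. Signal near background limits EDN2, EDN3 in WM115 and AC133 high Caco2 cells, and ECE1.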
